A study of Homo sapiens with 8 samples.

Results

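The lysosomal genes examined here were 36 genes for the hydrolases and membrane proteins of the lysosome. They were chosen by name, from a list of 37 symbols written for this organelle, and 36 of the 37 were rows of a table of 17561 genes. NEU1, a sialidase gene, was not. The choice used the symbol alone. The table came from HepG2, a human hepatocarcinoma cell line, grown on gelatin in William's E medium with serum, glutamine, insulin and dexamethasone. Cells received pGRHL2, a plasmid for a flag-tagged form of the epithelial transcription factor GRHL2, or the empty plasmid pcDNA3, and RNA was taken 48 h later. Each plasmid was represented by 4 libraries, which the study describes as independent biological replicates of this 1 line. The GRHL2 construct uses an EEF1A1 promoter and also makes enhanced green fluorescent protein, so the plasmids differ in more than GRHL2 itself, while transfection, medium and harvest time were shared by both groups.

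Lysosomes are acidic organelles in which proteins, glycans, sulfated sugar chains and lipids taken up from outside or delivered by autophagy are broken down. The soluble hydrolases are made in the endoplasmic reticulum, receive a mannose 6-phosphate tag in the Golgi and work best at the low pH kept by a proton pump, the V-ATPase. Heavily glycosylated membrane proteins line the organelle, and many of these genes are under the control of TFEB, TFE3 and MITF, factors that bind a short element around the letters CACGTG. Hepatocytes use lysosomes in bile formation, lipid droplet turnover and the clearance of plasma proteins.

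Values were on a log2 scale relative to transcript length, and a log2 fold change (log2 FC) is the pGRHL2 minus the pcDNA3 value. Averaging the pGRHL2 and pcDNA3 libraries of 1 replicate number gave the same result for all 4 numbers in each of the 17561 genes, so the libraries were read as 4 pairs, and the pGRHL2 values of a gene mirror its pcDNA3 values. Because of this, the groups fail to overlap exactly when the 4 pair differences have 1 sign. Read counts were not analysed here and the depth is unknown, so no counting error is given. GRHL2 itself was higher in 4 of 4 pairs (log2 FC 9.48 ± 0.57, SD, n = 4, adjusted p = 4.84e-08 by limma). All hepatocyte markers listed (9 of 9) were measured, with a summed level of 18.2 to 18.4 (log2) in pGRHL2 and 18.1 to 18.3 in pcDNA3 libraries. For 5 of 5 cholangiocyte markers the sum was 14.11 to 14.45 and 14.02 to 14.36, and for 4 of 7 fibroblast and endothelial markers 7.09 to 7.19 and 7.02 to 7.12. The sum over 4 of 7 leukocyte and macrophage markers was 13.23 to 13.43 and 13.13 to 13.33, nearly all of it from LYZ, while PTPRC, CSF1R and CD3E were not in the table. None of these markers passed the test at an adjusted p of 0.05, and their part in the values below was not tested. In such bulk RNA, fewer cells that express a gene and less RNA per cell cannot be told apart.

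Promoter sequence was read first, since it is what the TFEB family acts on. RefSeq windows on GRCh38.p14 (250 bases before to 50 after the gene start) were given for 24 of the 36 genes. The palindrome TCACGTGA, which contains CACGTG and reads the same on both strands, was found in 6 of 24 windows (25.0%), against 1.69% of the windows of 12829 genes of the table. CACGTG alone was in 8 of 24 (33.3%) against 9.5%. The letters AACCGGTT, a palindromic form of the element bound by GRHL factors, were in 0 of 24 windows and in 0.14% of all windows. This says only that these letters are not in these windows. The TCACGTGA matches are shown in capitals with their flanks, 5′ to 3′ along the gene's strand, and were chosen for the match. GAA, LAMP1 and MCOLN1 hold the motif at 2 places each.
ATP6V0D1, chr16:67481202-67481225, minus strand: ccttatggTCACGTGAggcgcttg
CLN3, chr16:28492061-28492084, minus strand: gggtgctgTCACGTGAtccgacaa
CTSA, chr20:45891301-45891324, plus strand: gccggagtTCACGTGActcgtaca
GAA, chr17:80101496-80101519, plus strand: aggccgcgTCACGTGAcccaccgc
GAA, chr17:80101541-80101564, plus strand: cccgccggTCACGTGAcccgcctc
LAMP1, chr13:113297202-113297225, plus strand: ccgcgggaTCACGTGAcgcccggg
LAMP1, chr13:113297229-113297252, plus strand: ggcgcagcTCACGTGAcaagcgct
MCOLN1, chr19:7522574-7522597, plus strand: agaggcggTCACGTGAggggctct
MCOLN1, chr19:7522601-7522624, plus strand: ctaccgggTCACGTGAccgaggca

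For the gene with the largest log2 FC, TPP1, and for MCOLN1, which had the most negative log2 FC among those with a window, the 250 bases before the RefSeq start are given whole, with TCACGTGA in capitals. The TPP1 stretch (chr11:6619423-6619672, minus strand) holds no exact match and the MCOLN1 stretch (chr19:7522374-7522623, plus strand) holds both of its copies close to the start. Only exact matches were sought. Near its end the TPP1 stretch holds tcatgtga and tcacatga, each a single letter away from TCACGTGA.
TPP1: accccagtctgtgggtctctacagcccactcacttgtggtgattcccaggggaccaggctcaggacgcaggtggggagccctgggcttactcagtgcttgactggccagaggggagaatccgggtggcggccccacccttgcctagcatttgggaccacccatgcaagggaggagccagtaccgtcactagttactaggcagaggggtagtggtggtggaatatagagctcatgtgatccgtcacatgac
MCOLN1: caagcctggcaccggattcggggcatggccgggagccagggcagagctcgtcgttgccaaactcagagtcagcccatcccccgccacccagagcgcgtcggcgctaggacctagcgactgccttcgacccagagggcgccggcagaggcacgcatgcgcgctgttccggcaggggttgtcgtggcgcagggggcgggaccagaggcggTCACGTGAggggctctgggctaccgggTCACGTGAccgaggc

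The comparison of pGRHL2 with pcDNA3 asked whether lysosomal transcripts changed upon GRHL2 ectopic expression. By limma, with replicate as a block, 0 of the 36 genes were higher and 0 lower at an adjusted p under 0.05, where 1.69% of all genes were higher and 0.501% lower. Among the 10858 genes with a mean value of at least 5, tested alone, 63 were higher and 81 lower. Of the 32 lysosomal genes among them, 0 were called. At an unadjusted p under 0.05, 6 of 36 (16.7%) were higher, namely TPP1, CD63, CTSA, CTSD, ARSA and PSAP, and 0 were lower, while 9.17% of all genes were higher and 6.78% lower. In some other fits that keep the block the 6 became 4, with ARSA and PSAP above that p. The groups did not overlap in 6 genes that were higher in pGRHL2 and 2 that were lower, against 13.4% and 10.5% of all genes. The 6 were TPP1, CTSA, GLB1, ARSA, PSAP and SCARB2, and the 2 were MCOLN1 and ARSB.

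The differences were small in size. The log2 FC was positive for 25 genes (69.4%, against 51.4% of all genes) and negative for 11, with a median of 0.03 (all genes 0.0017) and a range from -0.11 to 0.23. The 95% limma intervals of all 36 genes lay between -0.27 and 0.39, that is between 0.83-fold and 1.31-fold. Of these, 30 intervals held 0 and 6 lay above it. The deposited values shrink the differences of weakly expressed genes. For those of lowest level, such as CLN3, CTSZ, IDS and IDUA, the intervals may therefore be too narrow. In 26 genes the SD of the 4 pair differences exceeded the size of the log2 FC. The smallest adjusted p was 0.15 (TPP1) and the largest 0.991 (ATP6V1B2). Without the block, limma put the 6 genes named above at an adjusted p under 0.05 (0.0102 to 0.0391) and 0 lower, where it called 10.4% of all genes higher and 8.13% lower, but that fit takes the mirrored values of a pair as independent.

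**Figure D1:**
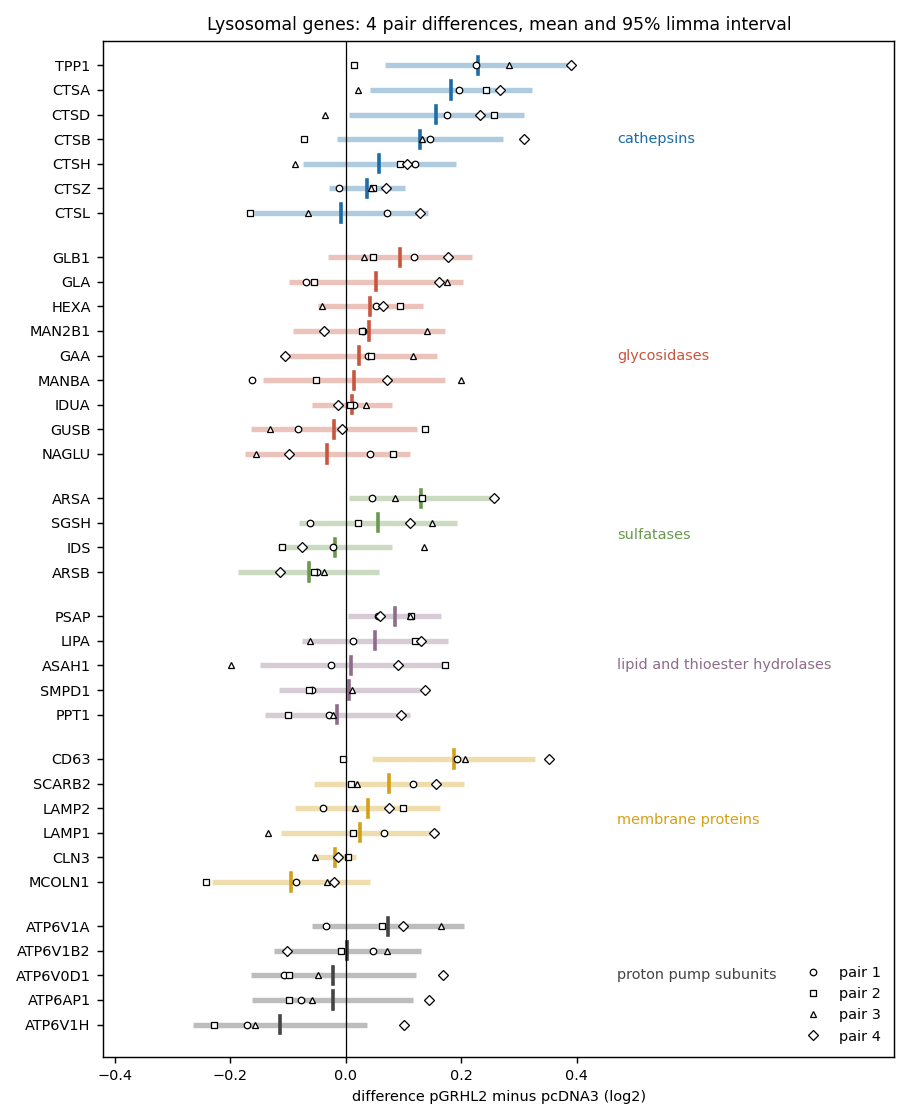
Difference between pGRHL2 and pcDNA3 (log2) for each lysosomal gene by role, with the 4 pair differences as open symbols, their mean as a vertical tick and the 95% limma interval as a bar. The 6 intervals that lie above 0 are those of TPP1, CTSA, CTSD, ARSA, PSAP and CD63, and the other 30 hold 0.

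The peptidases are the cathepsins together with TPP1 and are drawn as cathepsins. They had the highest median log2 FC of the 6 role groups, 0.13 over 7 genes, with 0 called. At an unadjusted p under 0.05, 3 (42.9%) were higher, against 9.17% of all genes. The log2 FC was positive in 6 (85.7%), against 51.4% of all genes. TPP1, a tripeptidyl peptidase lost in a childhood neuronal ceroid lipofuscinosis (chromosome 11, 6612768 to 6619448, hg38), had values of 9.46, 9.35, 9.48 and 9.54 in pGRHL2 libraries 1 to 4 and of 9.23, 9.34, 9.20 and 9.15 in pcDNA3 libraries 1 to 4. The groups were separate only by the gap within pair 2, whose libraries differed by 0.01. The log2 FC was 0.23 ± 0.16 (SD, n = 4, 1.17-fold, adjusted p = 0.15 by limma). CTSA is a serine carboxypeptidase that also holds beta-galactosidase and neuraminidase in a stable complex (chromosome 20, 45890144 to 45898949). Its values were 10.07, 10.09, 9.98 and 10.10 in pGRHL2 and 9.87, 9.85, 9.96 and 9.84 in pcDNA3 libraries, for a log2 FC of 0.18 ± 0.11 (SD, n = 4, 1.13-fold, adjusted p = 0.19 by limma). Here the groups were separate as well, and pair 3 was the narrow one. CTSD, the aspartic protease of the lysosome (chromosome 11, 1752752 to 1764573), had 8.96, 9.00, 8.85 and 8.99 in pGRHL2 and 8.78, 8.74, 8.89 and 8.76 in pcDNA3 libraries. Its groups overlapped through pair 3 (log2 FC 0.16 ± 0.13, SD, n = 4, adjusted p = 0.29 by limma).

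CTSB, a cysteine protease and the highest of the 7 per length, had 12.01, 11.90, 12.00 and 12.09 in pGRHL2 and 11.86, 11.97, 11.87 and 11.78 in pcDNA3 libraries. Pair 2 went the other way and the groups overlapped (log2 FC 0.13 ± 0.16, SD, n = 4, adjusted p = 0.37 by limma). The other cysteine cathepsins lay close to 0, with a log2 FC of 0.06 for CTSH, 0.04 for CTSZ and -0.01 for CTSL. CTSL was higher in 2 pairs and lower in 2.

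The glycosidases, which remove single sugars from glycolipids, glycogen and glycosaminoglycans, had 7 positive and 2 negative values among 9 genes and a median log2 FC of 0.02. None was past an unadjusted p of 0.05. GLB1, the beta-galactosidase and the highest of the 9 per length, had 10.30, 10.27, 10.26 and 10.33 in pGRHL2 and 10.19, 10.22, 10.23 and 10.16 in pcDNA3 libraries. The groups did not overlap, at a log2 FC of 0.09 ± 0.07 (SD, n = 4, adjusted p = 0.46 by limma). NAGLU, an enzyme of heparan sulfate breakdown, had 8.73, 8.75, 8.63 and 8.66 in pGRHL2 and 8.69, 8.67, 8.79 and 8.76 in pcDNA3 libraries. Pairs 1 and 2 were higher and pairs 3 and 4 lower, so that its log2 FC of -0.03 ± 0.11 (SD, n = 4, adjusted p = 0.87 by limma) had no steady direction. The remaining values ran from -0.02 for GUSB (beta-glucuronidase) through 0.01 for IDUA (alpha-L-iduronidase) and MANBA (beta-mannosidase), 0.02 for GAA (acid alpha-glucosidase of glycogen), 0.04 for HEXA (a beta-hexosaminidase subunit) and MAN2B1 (alpha-mannosidase), to 0.05 for GLA (alpha-galactosidase).

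The 4 sulfatases split evenly, with 2 positive and 2 negative values. ARSA, the arylsulfatase of sulfatide breakdown (chromosome 22, 50622754 to 50628173), had 7.07, 7.12, 7.09 and 7.18 in pGRHL2 and 7.03, 6.98, 7.01 and 6.92 in pcDNA3 libraries. The groups did not overlap and pair 4 had the widest gap (log2 FC 0.13 ± 0.09, SD, n = 4, adjusted p = 0.29 by limma). ARSB, which acts on dermatan and chondroitin sulfate, had 9.64, 9.64, 9.65 and 9.61 in pGRHL2 and 9.69, 9.69, 9.68 and 9.72 in pcDNA3 libraries. It was lower in 4 of 4 pairs, by a log2 FC of -0.06 ± 0.03 (SD, n = 4, adjusted p = 0.63 by limma). SGSH (heparan N-sulfatase) had a log2 FC of 0.055 and IDS (iduronate sulfatase) of -0.02.

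Among the 5 genes of lipid and thioester breakdown the median log2 FC was 0.01. PSAP encodes the precursor of the saposins, small activator proteins that present sphingolipids to their hydrolases (chromosome 10, 71816298 to 71851251). It had the highest level of all 36 genes, 13.42, 13.45, 13.45 and 13.43 in pGRHL2 and 13.37, 13.34, 13.34 and 13.37 in pcDNA3 libraries. The groups were separate and the pairs closely alike, with a log2 FC of 0.08 ± 0.03 (SD, n = 4, 1.06-fold, adjusted p = 0.29 by limma). LIPA, the acid lipase of cholesteryl esters, had a log2 FC of 0.05. ASAH1 (acid ceramidase), SMPD1 (acid sphingomyelinase) and PPT1 (palmitoyl-protein thioesterase) lay at 0.0094, 0.0063 and -0.01.

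Of the 6 membrane protein genes, 4 were positive and 2 negative (median log2 FC 0.03). CD63, a tetraspanin of late endosomes, lysosomes and exosomes (chromosome 12, 55725323 to 55729707), was at 11.80, 11.71, 11.81 and 11.88 in pGRHL2 and at 11.61, 11.71, 11.61 and 11.53 in pcDNA3 libraries. The groups overlapped through pair 2 alone, whose difference was -0.0050 (log2 FC 0.19 ± 0.15, SD, n = 4, 1.14-fold, adjusted p = 0.18 by limma). MCOLN1 encodes a cation channel that releases calcium from lysosomes (chromosome 19, 7522624 to 7534009). It had 8.10, 8.02, 8.13 and 8.13 in pGRHL2 and 8.19, 8.27, 8.16 and 8.15 in pcDNA3 libraries, lower in 4 of 4 pairs, but by only 0.02 and 0.03 in pairs 4 and 3 (log2 FC -0.10 ± 0.10, SD, n = 4, adjusted p = 0.50 by limma). LAMP1 and LAMP2, the main glycoproteins of the membrane, had a log2 FC of 0.02 and 0.04. SCARB2, a receptor that carries a hydrolase to the lysosome, had 0.07 with 4 of 4 pairs higher, and CLN3, a membrane protein lost in a juvenile ceroid lipofuscinosis, had -0.02.

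The 5 proton pump genes were the only role group with a negative median log2 FC (-0.02). ATP6V1H, a regulatory subunit of the cytosolic sector, had the most negative value of the 36 genes. Its values were 10.34, 10.31, 10.35 and 10.48 in pGRHL2 and 10.51, 10.54, 10.51 and 10.38 in pcDNA3 libraries (log2 FC -0.11 ± 0.15, SD, n = 4, adjusted p = 0.46 by limma). Pairs 1 to 3 were lower and pair 4 was higher, so the groups overlapped. ATP6V0D1, of the membrane sector and the highest of the group, had 10.51, 10.51, 10.54 and 10.65 in pGRHL2 and 10.62, 10.61, 10.59 and 10.48 in pcDNA3 libraries (log2 FC -0.02 ± 0.13, SD, n = 4, adjusted p = 0.92 by limma). The accessory gene ATP6AP1 had 9.99, 9.97, 9.99 and 10.10 in pGRHL2 and 10.06, 10.07, 10.05 and 9.95 in pcDNA3 libraries (log2 FC -0.02 ± 0.11, SD, n = 4, adjusted p = 0.91 by limma). All 3 of these subunits shared the sign pattern of lower in pairs 1 to 3 and higher in pair 4. ATP6V1A, the catalytic subunit, had a log2 FC of 0.07, and ATP6V1B2 had 0.0024.

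**Figure D2:**
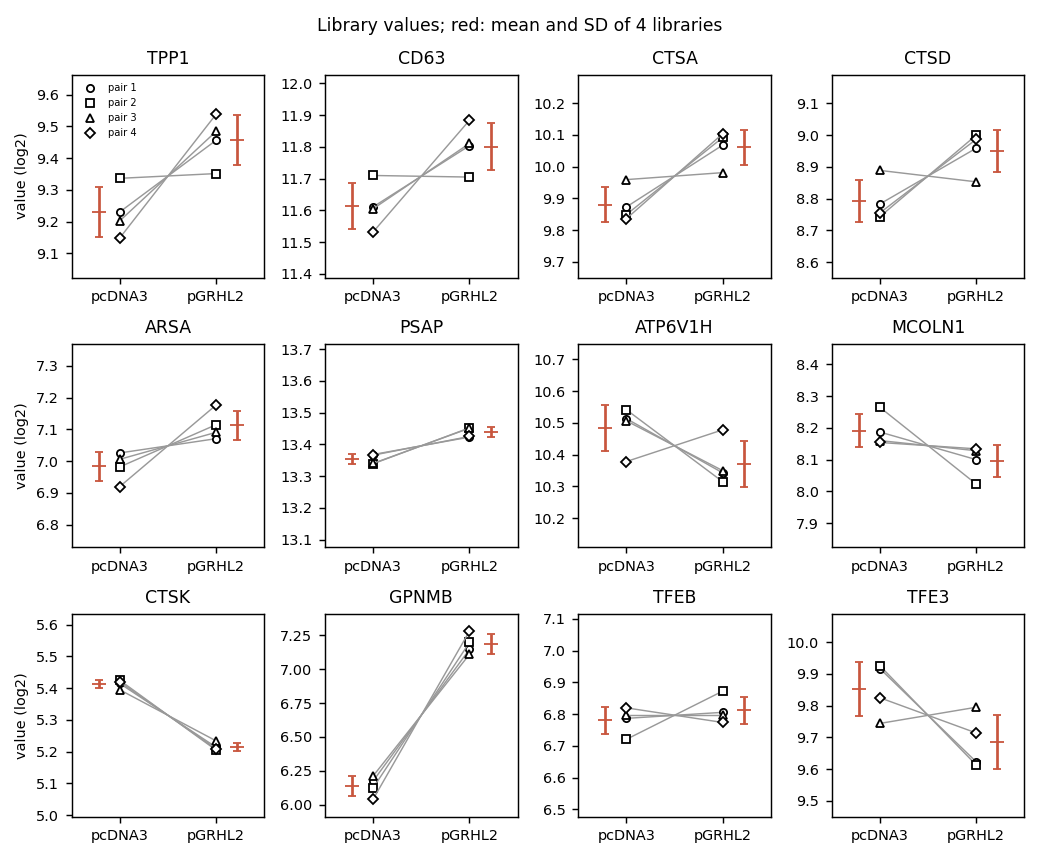
Log2 value in each of the 8 libraries for 8 lysosomal genes and for CTSK, GPNMB, TFEB and TFE3, with lines joining same-numbered libraries and red marks for the mean and SD of 4 libraries, where the value axes differ in position and, for GPNMB, in span. The difference is smallest in pair 2 for TPP1 and CD63 and in pair 3 for CTSA and CTSD, and the groups are well apart in CTSK and GPNMB.

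The pairs were not alike. In pairs 1 to 3 the number of lysosomal genes higher in pGRHL2 was 19, 22 and 20 of 36, and in pair 4 it was 26 of 36, while 51.8%, 52.3%, 51.6% and 51.5% of all genes were higher in pairs 1 to 4. The median difference was 0.01, 0.01 and 0.02 in pairs 1 to 3 and 0.10 in pair 4, with an all-gene median of 0.0059 or less in each. In the peptidases the pair medians were 0.15, 0.05, 0.02 and 0.23. Those of the proton pump genes were -0.08, -0.10, -0.05 and 0.10, so that pair 4 alone was positive. ATP6V1H, ATP6V0D1 and ATP6AP1 had this pattern. ATP6V1A was higher in every pair but pair 1, and ATP6V1B2 was lower in pair 4 (-0.10). The median log2 FC of the 36 genes, 0.0308 over all 4 pairs, was 0.0381, 0.029, 0.0196 and 0.0244 without replicates 1 to 4 in turn, lowest without replicate 3.

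The 6 genes with TCACGTGA in the promoter window had a median log2 FC of 0.0019, with 3 positive and 3 negative values. CTSA was at 0.18, GAA and LAMP1 at 0.02, ATP6V0D1 and CLN3 at -0.02 and MCOLN1 at -0.10. The 18 genes whose window lacked an exact match to TCACGTGA had a median of 0.04, with 12 positive and 6 negative values. Among these, CD63 and CTSD hold the shorter CACGTG, at a log2 FC of 0.19 and 0.16. The split is therefore by the longer motif alone. The difference between these sets was not tested. The RNA of the factors TFEB, TFE3 and MITF was not called, and their activity was not measured. TFEB had a log2 FC of 0.03 ± 0.08 (SD, n = 4, adjusted p = 0.85 by limma), MITF of 0.05 ± 0.04 (adjusted p = 0.36 by limma) and TFE3, lower in 3 of 4 pairs, of -0.17 ± 0.17 (adjusted p = 0.31 by limma).

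Of the rest of the pathway, on lists chosen with earlier results of these data known, 126 of 136 listed genes were in the table. Of these, 2 were higher and 1 lower at an adjusted p under 0.05, where 1.69% of all genes were higher and 0.501% lower. CTSK, a cathepsin best known from bone-resorbing osteoclasts (chromosome 1, 150794880 to 150809577), had 5.21, 5.21, 5.23 and 5.21 in pGRHL2 and 5.42, 5.43, 5.40 and 5.42 in pcDNA3 libraries. The values were tight within each group and it fell in 4 of 4 pairs (log2 FC -0.20 ± 0.03, SD, n = 4, adjusted p = 0.0354 by limma). Leaving out any 1 replicate ended this call (limma adjusted p 0.0924 to 0.165). ATP6V0A4, a pump subunit of kidney and epididymis, was called at a level of 1.29, with a log2 FC of 0.07 ± 0.01 (SD, n = 4, adjusted p = 0.0393 by limma) and a call that was also lost without any 1 replicate (limma adjusted p 0.0997 to 0.17).

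GPNMB, a transmembrane glycoprotein of melanosomes and lysosomes and a target of the TFEB family (chromosome 7, 23235967 to 23275108), had 7.15, 7.20, 7.11 and 7.28 in pGRHL2 and 6.18, 6.12, 6.21 and 6.04 in pcDNA3 libraries. It rose in 4 of 4 pairs (log2 FC 1.05 ± 0.15, SD, n = 4, 2.07-fold, adjusted p = 0.000343 by limma). The log2 FC of TPP1, the largest among the 36 genes, was 0.23, and the upper limit of its 95% interval, 0.39, was below the 0.90 at the lower limit of GPNMB.

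**Figure D3:**
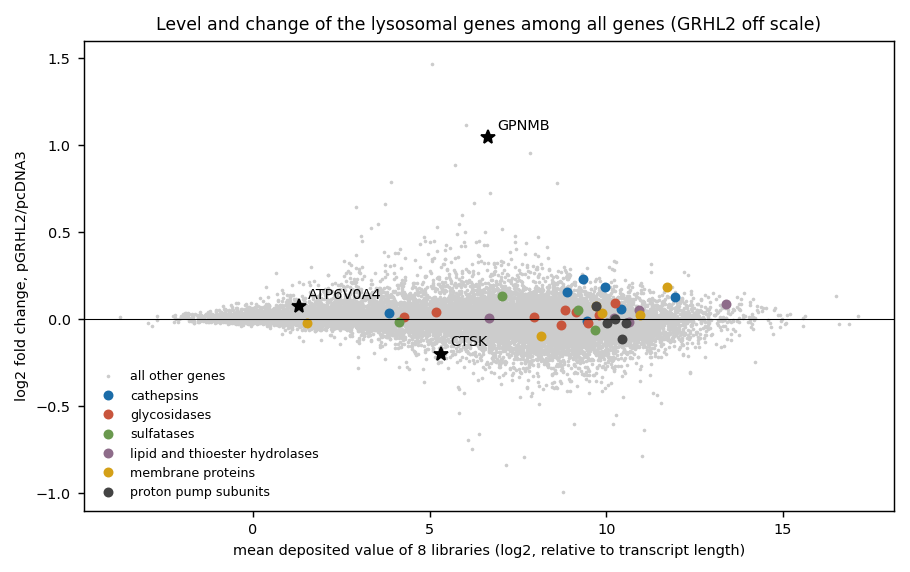
Log2 FC (pGRHL2/pcDNA3) against the mean value of 8 libraries (log2, relative to transcript length), with all genes in grey, the 36 lysosomal genes in colour by role and the 3 called genes of the other pathway lists as stars and GRHL2 off the scale. The 36 genes stay between -0.11 and 0.23, while GPNMB lies at 1.05 and CTSK at -0.20.

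By list, the other lysosomal hydrolases had 0 genes called higher and 1 lower of 25 by limma, with a median log2 FC of 0.05 and 5 genes higher and 1 lower at an unadjusted p under 0.05 (20.0% higher, against 9.17% of all genes). The other membrane proteins had 0 called of 24 (2 higher and 0 lower unadjusted, median 0.0075). The other pump subunits had 1 called higher of 15 (median 0.01). The genes that sort enzymes to lysosomes had 0 called of 22 by limma (1 higher and 1 lower unadjusted, median 0.01). Over all genes, 1.69% were called higher and 0.501% lower.

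The lysosomal genes were well expressed: 30 of 36 lay above the table median of 6.72 (log2, relative to length). The highest levels were those of PSAP (13.40), CTSB (11.94), CD63 (11.71), LAMP1 (10.95) and LIPA (10.92). LAMP1 and LIPA were close in level, and their order was not tested. The lowest were those of CLN3 (1.53), CTSZ (3.84), IDS (4.14), IDUA (4.27) and HEXA (5.18). Reads were counted without strand and in a mode that drops reads over 2 genes, so overlap with other genes was measured in GENCODE release 44. In CLN3 100% of the exon bases of the canonical transcript were shared with another gene, and in IDS 90.73%, in both mostly with a readthrough gene. The share was 21.65% in HEXA, 6.49% in IDUA and 0 in CTSZ, where 31.65% of all exon bases were shared. The median level was 8.87 in the 13 genes with shared canonical bases and 10.02 in the 23 without, and the part of the overlap in these levels was not tested. Among the genes higher at an unadjusted p under 0.05, the share was 62.14% in CTSD, 24.11% in CTSA, 22.05% in TPP1 and 0 in CD63, ARSA and PSAP.

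**Figure D4:**
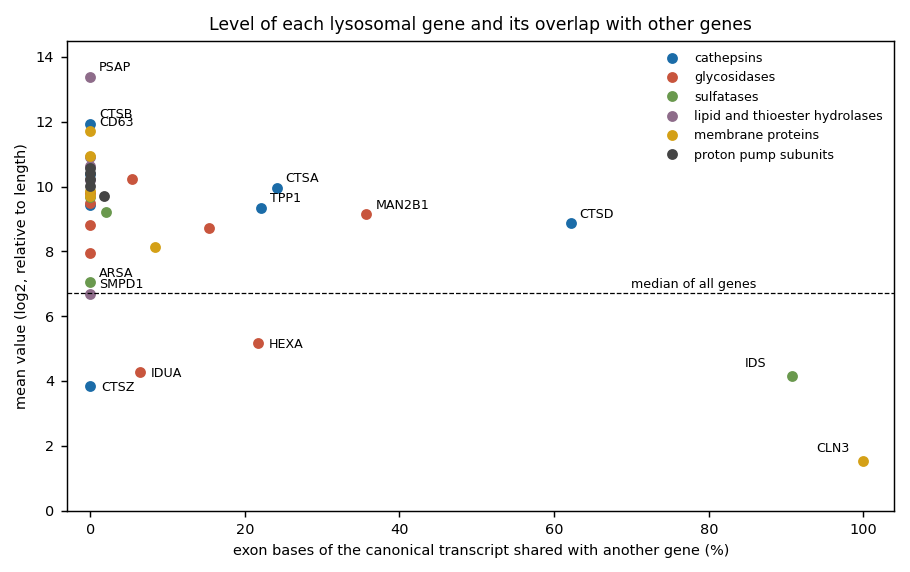
Mean value of 8 libraries (log2, relative to transcript length) of each lysosomal gene against the percent of exon bases of its canonical transcript shared with another gene, coloured by role, with the median of all 17561 genes as a dashed line. CLN3 and IDS, with 100% and 90.73% shared, lie at 1.53 and 4.14, while the 5 genes with the highest levels share 0.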

How the data were processed

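Messenger RNA of 8 HepG2 libraries was sequenced with paired ends. Steps are given after the methods of the study and versions after the submitters' processing notes, and the methods name other versions of HISAT2 and DESeq2. The authors used HISAT2 2.2.1 for alignment to hg38, HTSeq 0.9.1 for unstranded counts over exons in union mode, a filter on weakly covered genes, the rlog of DESeq2 1.40.2 and a division by mean transcript length. The file deposited as FPKM holds log2 values, since 3.71% were negative and level dropped as log2 length increased (slope -0.84 in 2371 steady genes). Because rlog shrinks the differences of weakly expressed genes, their log2 FC and the SD of their pair differences are both understated. Such genes include ATP6V0A4 and, among the lysosomal genes, CLN3, CTSZ, IDS and IDUA. In 1 value a stray character was trimmed. The table had 0 columns of other samples.

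Same-numbered libraries had equal means in 17561 of 17561 genes (largest spread 1.5e-13), through a step absent from the methods. The deviations of same-numbered libraries are opposite by construction, which makes a correlation check of the pairing void. The pairing was taken from the replicate numbers of the labels and this structure. Differences were tested with limma 3.58.1 in R 4.3.3 (lmFit, eBayes with trend) with the replicate number as a block, Benjamini-Hochberg adjustment over all 17561 genes and a threshold of 0.05. The fit was checked on simulated data. An exact sign-flip test of 4 pairs cannot go below 0.125 and was not used. Depth is unknown.

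The members, gene lists and tests were chosen with earlier results of these data known. Genes named with full values were the 5 members with the most positive and the 5 with the most negative log2 FC, the member with the highest level in each role group, genes of the other pathway lists called by limma, GPNMB, TFEB, TFE3, MITF and GRHL2. A gene of the other pathway lists is not reported here and was left out of their counts. Symbols matched GENCODE release 44 for 99.9% of genes. Promoters came from RefSeq (GRCh38.p14), and 12 members had no entry there. Alternatives were a fit with no block, eBayes made robust, library weights (arrayWeights), median centring, an equal linear total without GRHL2, a filter at a mean of 5, trends on GC, length and level taken out, a stricter adjusted p of 0.01, and each replicate left out (both libraries of a pair).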

Additional observations from a re-analysis of the deposited data

Results flagged for a closer look

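In 2 of the 43 genes examined, both among the 36 lysosomal genes, 1 pair difference stood apart from the other 3 by Dixon's limit, which chance passes in about 1 of 20 groups. For CTSH, a cysteine cathepsin with aminopeptidase activity, pair 3 was at -0.0875 (log2) while the other pairs lay between 0.09 and 0.12. For ATP6AP1, the accessory gene of the proton pump, pair 4 was at 0.1435 while the other pairs lay between -0.10 and -0.06.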

How the results depend on the processing

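Without the replicate block, 1821 genes of the table were higher and 1427 lower, among them 6 lysosomal genes higher and 0 lower (10 higher and 3 lower at an unadjusted p) and 18 higher and 11 lower genes of the other pathway lists. With arrayWeights 503 were higher and 221 lower, with 1 lysosomal gene lower unadjusted. With an equal linear total 495 were higher. When genes with a mean under 5 were dropped, 63 of the 10858 genes left were higher and 81 lower. Of the other lists 1 gene was then higher and 0 lower (CTSK limma adjusted p 0.0746). With trends removed 152 were higher, and 1 lysosomal gene was lower unadjusted. An adjusted p under 0.01 left 77 and 10. Leaving out 1 replicate gave 79 to 156 higher and 8 to 68 lower, 0 lysosomal genes called throughout, 1 to 4 higher and 0 to 1 lower unadjusted, 1 higher and 0 lower in the other lists, a lysosomal median of 0.02 to 0.04 and a GRHL2 log2 FC of 9.22 to 9.65.

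With 1 replicate left out, NAGLU (-0.0706 to 0.0086), ATP6AP1 (-0.0782 to 0.0022), ATP6V0D1 (-0.0846 to 0.0071) and TFEB (-0.0089 to 0.057) changed sign. Of the other lists 1 gene was higher under median centring and with trends removed, where ATP6V0A4 had an adjusted p of 0.0617 and 0.17. In the other settings 129 of 138 values of named genes kept direction and call, 3 lost a call, 6 gained one and 0 reversed. Under the alternatives that keep the block, the smallest adjusted p of any lysosomal gene was 0.107 to 0.433, against 0.0102 without it. At an unadjusted p under 0.05, 4 lysosomal genes were higher with robust eBayes, median centring or the filter at a mean of 5. With arrayWeights 5 were higher. No shift of the all-gene median exceeded 0.0152. The cause of these differences was not tested.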

Other observations

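Autophagy delivers cytoplasm to the lysosome, and 18 of 19 listed autophagy genes were in the table. By limma 0 were called at an adjusted p under 0.05. The log2 FC was positive for 8 genes and negative for 10. At an unadjusted p under 0.05, 3 were higher and 3 lower, against 9.17% and 6.78% of all genes, and these were named after their values were seen. MAP1LC3B and GABARAPL1, which encode ubiquitin-like proteins coupled to the autophagosome membrane, had a log2 FC of 0.18 ± 0.18 and 0.20 ± 0.16 (SD, n = 4 pairs), and WIPI1, a phosphoinositide-binding protein of early autophagosomes, had 0.18 ± 0.12. Each was higher in 4 of 4 pairs. SQSTM1, which encodes a cargo receptor of autophagy, had -0.14 ± 0.09 and ATG14, a subunit of the lipid kinase complex, had -0.14 ± 0.06, both lower in 4 of 4 pairs. UVRAG, of a related complex, had -0.20 ± 0.17 and was lower in 3 of 4 pairs. Canonical exon bases shared with another gene were 55.7% in SQSTM1, 28.3% in WIPI1, 22.21% in ATG14, 3.85% in UVRAG and 0 in MAP1LC3B and GABARAPL1. These are RNA values, and autophagy itself was not measured.

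Among 22 genes of the TFEB family and of nutrient sensing at the lysosome, GPNMB was called higher and 0 lower. This list was chosen with earlier results of these data known. The shares called over all genes were 1.69% higher and 0.501% lower. At an unadjusted p under 0.05, 4 were lower (6.78% of all genes were), also named after their values were seen. Besides TFE3 these were FLCN and RRAGC, which act together in Rag GTPase signalling on the lysosome (log2 FC -0.16 ± 0.15 and -0.26 ± 0.29, SD, n = 4 pairs, each lower in 3 of 4 pairs), and TSC1, an inhibitor of mTORC1 (-0.19 ± 0.12, lower in 4 of 4 pairs). For RRAGC the SD exceeded the size of the log2 FC. Canonical exon bases shared with another gene were 44.13% in RRAGC, 31.2% in FLCN, 0.62% in TSC1 and 0 in TFE3.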
